A study of Rattus norvegicus with 24 samples.

Results

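Opioid peptides, opioid receptors and the brain cannabinoid receptor were followed across 6 brain regions and 4 groups of rats. The members were the probe sets whose platform annotation gave 1 of 8 gene symbols: the peptide precursors Penk, Pdyn and Pnoc, the opioid receptors Oprm1, Oprk1, Oprd1 and Oprl1, and the cannabinoid receptor Cnr1. These 8 of 14217 named genes were read by 15 probe sets. The probe set with the highest mean log2 signal represented its gene, and 4 of the 8 genes (Penk, Pdyn, Oprl1 and Cnr1) lay in the brighter 50% of probe sets that entered the tests. Pnoc, Oprm1, Oprk1 and Oprd1 were under this filter and are described by their values. Tests given for them come from a second fit without the filter.

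The series compared rat models of attention deficit hyperactivity disorder, a genetic one (SHR) and an environmental one (SDpcb). Brains came from 28 male rats at postnatal day 55 to 65: 8 spontaneously hypertensive rats (SHR, an inbred strain), 8 Wistar-Kyoto control rats (WKY), 8 Sprague-Dawley control rats (SD), and 4 Sprague-Dawley rats exposed to polychlorinated biphenyls (SDpcb). No allele, drug or surgery is named for any group, and the dose and time of the biphenyl exposure are not given in the sources used here. The regions were hippocampus, prefrontal cortex, cerebellar vermis, the dorsal and the ventral striatum, and a midbrain piece of substantia nigra and ventral tegmental area (nigra/VTA). Each group gave 1 array per region, 24 in all. No value therefore has a replicate within a group and region, and whether an array held RNA of 1 rat or of a pool is not stated. The 6 arrays of a group come from its 8 or 4 rats, and whether each region was taken from the same rats is not stated. The p-values for a group therefore measure agreement between regions and cannot be read as agreement between animals. They are too small as statements about a strain or an exposure.

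Opioid peptides are cut from larger precursors. Penk encodes preproenkephalin, the source of the enkephalins, which act mainly at delta and mu receptors; Pdyn encodes prodynorphin, the source of the dynorphins, which prefer the kappa receptor; Pnoc encodes the precursor of nociceptin, the ligand of the Oprl1 receptor. All 4 opioid receptors and the CB1 receptor encoded by Cnr1 couple to inhibitory G proteins. In the striatum enkephalin marks spiny neurons that project to the globus pallidus and dynorphin those that project to the substantia nigra, while CB1 sits largely on axon terminals.

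The stretch before the Pdyn start is shown because Pdyn had the largest difference between regions among the members. It spans the 250 bases before the annotated start on the minus strand of the GRCr8 assembly, chr3:137366504-137366753, as given by RefSeq, and 59.2% of its bases are G or C. The capitals mark ATTGG, which is CCAAT read on the other strand and whose match lies 87 bases before the start, and TATAAA, 13 bases before the start.
Pdyn: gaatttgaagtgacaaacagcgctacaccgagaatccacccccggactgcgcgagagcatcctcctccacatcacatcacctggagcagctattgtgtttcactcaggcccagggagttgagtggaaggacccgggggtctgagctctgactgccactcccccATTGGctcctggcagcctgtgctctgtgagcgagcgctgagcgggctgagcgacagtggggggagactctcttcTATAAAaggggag
Over both strands of all 33469 promoter windows, CCAAT was found in 34.0% and TATAAA in 12.9%. The cyclic AMP response motif TGACGTCA (1.59% of windows), its core TGACG (18.2%), the form TGCGTCA (1.66%) and the AP-1 motif TGANTCA (6.34%) were not in this window. TGACG is part of TGACGTCA. A match or its absence describes these letters alone. Promoter windows were at hand for 3 members, Pdyn, Oprm1 and Oprd1, and neither CCAAT nor TATAAA was in those of Oprm1 and Oprd1.

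Drd1 and Drd2 were highest on the striatal arrays, Prox1 and Neurod6 on the hippocampal, Gabra6 and Pcp2 on the vermis and Slc6a3 on the nigra/VTA arrays. Th was highest on 3 of the 4 nigra/VTA arrays, and at 217 on the SDpcb one it was under the SD dorsal striatal array (249). Ttr, a choroid plexus marker, read 3876 to 14168 on the hippocampal arrays, 608 to 8138 on the nigra/VTA arrays and 221 to 20978 on the vermis arrays, against at most 761 elsewhere. The WKY prefrontal array also held cerebellar transcripts, with Gabra6 at a signal of 2297 and Pcp2 at 668, against at most 97 and 76.2 on the other 3 prefrontal arrays. The SDpcb and SHR nigra/VTA arrays held hypothalamic transcripts, with the melanin-concentrating hormone gene Pmch at 13017 and 9765, against 2447 in SD and 1038 in WKY. All 4 nigra/VTA arrays were thus above the other regions for Pmch (280 at most), and the SHR ventral striatal array held some oxytocin transcript (Oxt 1112). Of 5 dopamine neuron markers 4 were lowest on the SDpcb nigra/VTA array, with Slc6a3 at 955 against 5916 to 8411 on the other 3, while Nr4a2 read 259 there against 188 in SD, 343 in SHR and 174 in WKY. The mean signal without the outer 2% at each end was near 500.2 on all arrays, while the dim end differed between groups. The lower quartile of all probe sets averaged 64.5 in SD, 27.6 in SDpcb, 56.2 in SHR and 38.8 in WKY (6 arrays each).

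Each region was set against the average of the remaining 5 on log2(signal + 1), with 4 arrays a region. A probe set was called at a limma adjusted p under 0.05 (Benjamini-Hochberg over 15521 probe sets) and a log2 difference of at least 1. By this rule the called members, in either direction, were 2 in dorsal striatum (background 5.16% of probe sets), 2 in ventral striatum (2.04%), 1 in prefrontal cortex (4.72%), 1 in hippocampus (2.83%), 2 in nigra/VTA (7.44%) and 4 in vermis (15.3%), each of the 4 tested. The 4 tested genes are too few for a share to be set against that background.

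**Figure D1:**
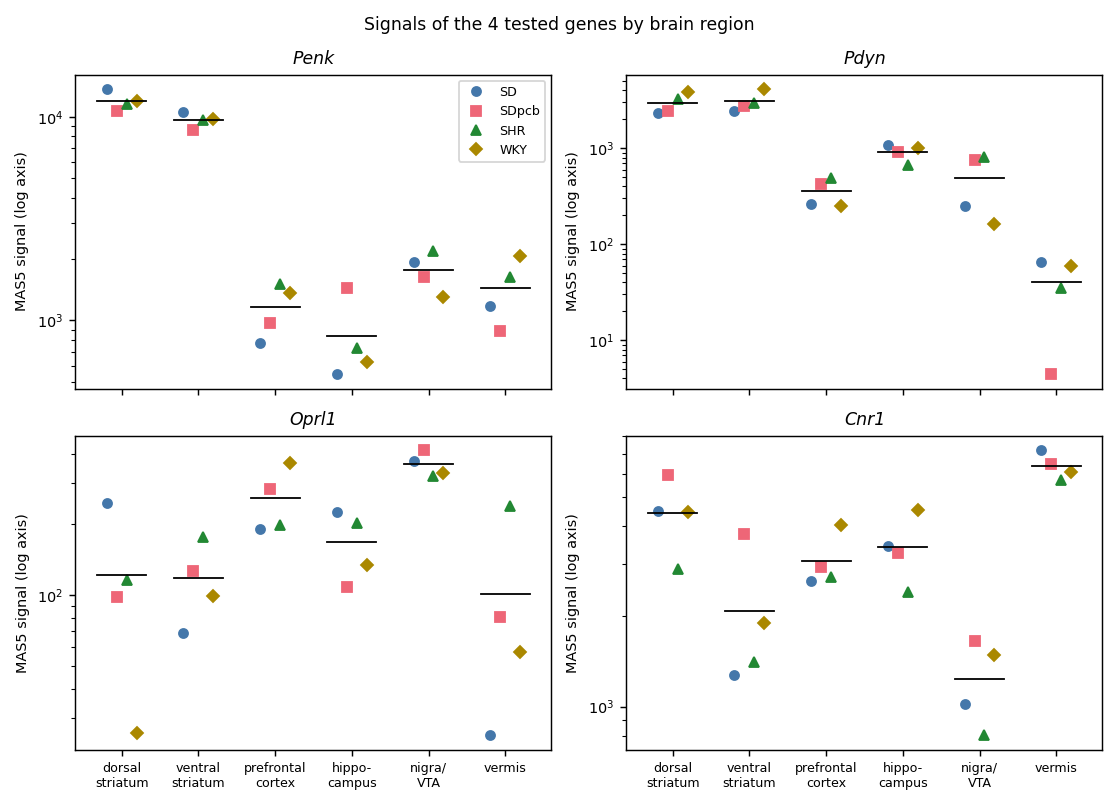
Signal (log axis) of Penk, Pdyn, Oprl1 and Cnr1 in the 6 regions, 1 point per array with the group by colour and shape, and the mean of the 4 arrays as a line. Penk and Pdyn are high in both striatal regions, Pdyn is lowest in the vermis (4.42 to 64.7), and Cnr1 is highest there by its mean.

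Penk, the enkephalin precursor, was high in the whole striatum. In dorsal striatum its signal was 13709 in SD, 10672 in SDpcb, 11577 in SHR and 11877 in WKY. In ventral striatum it was 10537, 8636, 9663 and 9785 in the same order. All 8 striatal arrays stood above all others, and the dorsal and ventral ranges did not overlap. The nigra/VTA arrays followed at 1933, 1641, 2189 and 1295, and the vermis at 1179, 891, 1628 and 2070. Prefrontal cortex read 774, 975, 1515 and 1369, and hippocampus 543, 1442, 735 and 628. From the nigra/VTA down, the ranges of regions next to each other overlapped, so that their order is not separated. Relative to the other 5 regions, Penk rose by 2.71 ± 0.20 (log2, SE, n = 4 arrays) in dorsal striatum, 6.55-fold, with a limma adjusted p of 1.07e-09. In ventral striatum it rose by 2.34 ± 0.20, 5.07-fold (limma adjusted p = 2.99e-08).

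Penk fell in 3 regions by the same rule, where the average it is set against includes the striatal arrays. The log2 difference was -2.02 in hippocampus (limma adjusted p = 2.20e-07), -1.38 in prefrontal cortex (2.15e-05) and -1.03 in vermis (0.000187), each with an SE of 0.20. The vermis value passed the size rule narrowly, and it was under 1 after quantile or loess normalization and without the SD or the SDpcb arrays (-0.80 at the smallest). In nigra/VTA the difference was -0.63 (limma adjusted p = 0.0191), under the size rule, and -0.72 (0.0791) without the SDpcb and SHR arrays of that region. The prefrontal value was -1.49 (0.000103) without the WKY prefrontal array. The dorsal signal exceeded the ventral in each group, by 1.30-fold in SD, 1.24 in SDpcb, 1.20 in SHR and 1.21 in WKY. That difference of 0.31 ± 0.26 did not pass the test against the spread of the fit (95% interval -0.23 to 0.84, limma adjusted p = 0.810).

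Pdyn, the dynorphin precursor, was even between the striatal regions and next highest in the hippocampus by its brighter probe set. The signal of its brighter probe set was 2305 in SD, 2449 in SDpcb, 3272 in SHR and 3841 in WKY in dorsal striatum. In ventral striatum it was 2441, 2747, 2971 and 4158. Both ranges overlapped, and both lay above the hippocampus, where the 4 arrays read 1085, 905, 675 and 1006. Prefrontal cortex read 260, 421, 494 and 250, below every hippocampal array, while the nigra/VTA arrays, described below, overlapped both. In the vermis the signals were 64.7, 4.42, 34.7 and 58.9, between the 4.24th and the 25.1st percentile of their arrays. A signal there may be background, since no detection call is given. Relative to the other 5 regions Pdyn rose by 2.84 ± 0.43 in dorsal striatum, 7.16-fold (limma adjusted p = 2.88e-05), and by 2.91 ± 0.43 in ventral striatum, 7.50-fold (5.92e-05). It fell by 5.10 ± 0.43 in the vermis (limma adjusted p = 9.22e-10), a size that rests on these dim signals.

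The hippocampal difference for Pdyn was 0.82 ± 0.43 and the prefrontal -0.86 ± 0.43, neither past the test (limma adjusted p = 0.288 and 0.163). Dorsal and ventral striatum differed by -0.06 ± 0.55 (95% interval -1.20 to 1.09). A second Pdyn probe set was dim, at signals of 8.92 to 166. Its vermis arrays read 67.4, 39.6, 90.2 and 135 and its difference there was 0.37, without the fall of the brighter probe set. Over the 24 arrays both probe sets had a Pearson r of 0.28. By their means both had the ventral and then the dorsal striatum first, and the ventral arrays of the dim one read 119 to 166. In the dim one the hippocampus was not next, with a mean of 42.8 under the vermis (82.9) and prefrontal cortex (56.5).

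In the nigra/VTA the 4 Pdyn signals split into pairs. SDpcb read 757 and SHR 813, while SD read 248 and WKY 162, so that the arrays of both models stood above the arrays of both controls. Dynorphin is made by hypothalamic neurons as well as by striatal ones, and the same pair of arrays carried the hypothalamic transcripts. The summed signal of 6 hypothalamic marker genes, all on the array, was 17514 in SDpcb and 25898 in SHR, against 3020 in SD and 1365 in WKY. Hcrt, the orexin precursor, read 1900 and 454 against 113 and 46.5; Oxt, for oxytocin, 1283 and 9747 against 156 and 58.6. Avp, for vasopressin, read 801 and 5563 against 194 and 145, and Trh, for thyrotropin-releasing hormone, 506 and 362 against 103 and 68.1. Pomc stayed near 0, at 6.80 to 9.10 on all 4 arrays. The summed spiny neuron markers were 2373 in SD, 4866 in SDpcb, 2765 in SHR and 3465 in WKY, with no such split. The part of the hypothalamic transcripts in the Pdyn signal was not tested. With all 4 arrays the nigra/VTA difference of Pdyn was -0.60 ± 0.43 (limma adjusted p = 0.297), and without the SDpcb and SHR nigra/VTA arrays it was -1.78 (0.0145). The arrays left out were those with the higher Pdyn signal, so a lower value had to follow, and no conclusion is drawn from it.

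**Figure D2:**
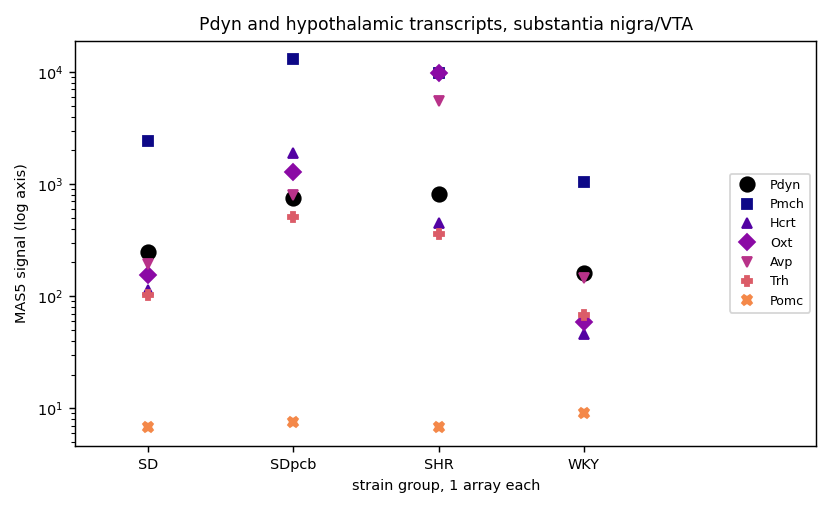
Signal (log axis) of Pdyn and of 6 hypothalamic genes on the 4 nigra/VTA arrays, 1 array per group. Pdyn, Pmch, Hcrt, Oxt, Avp and Trh are each higher on the SDpcb and SHR arrays than on the SD and WKY arrays; Pomc is at 6.80 to 9.10 throughout.

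Pnoc, the nociceptin precursor, and the brightest probe set of Oprl1, its receptor, both had their highest mean signal in the nigra/VTA. Pnoc read 261 in SD, 431 in SDpcb, 438 in SHR and 381 in WKY there. In hippocampus it read 80.2, 199, 142 and 272, and in prefrontal cortex 157, 129, 164 and 214. It was lowest in dorsal striatum, at 6.50, 83.6, 37.0 and 8.52, with every array under its ventral striatal partner (18.2, 133, 232 and 78.6). The vermis read 156, 122, 24.9 and 7.37, spread over most of that range. Pnoc was under the filter, at the 46.1st percentile by its mean. In the fit without the filter its difference was 2.34 ± 0.56 in nigra/VTA (limma adjusted p = 0.00359) and -2.56 ± 0.56 in dorsal striatum (0.00236), where 5.97% and 3.41% of 31042 probe sets were called. The dorsal minus ventral value of -1.93 ± 0.73 did not pass (limma adjusted p = 0.481).

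The Oprl1 signal in nigra/VTA was 370 in SD, 415 in SDpcb, 323 in SHR and 332 in WKY, within a narrow range. Prefrontal cortex read 191, 284, 199 and 364, hippocampus 226, 108, 203 and 134, dorsal striatum 248, 97.9, 116 and 25.9, ventral striatum 68.8, 126, 177 and 99.3, and vermis 25.3, 80.6, 240 and 57.0. Ranges of neighbouring regions overlapped throughout. Relative to the other 5 regions Oprl1 rose by 1.51 ± 0.41 in nigra/VTA, 2.85-fold (limma adjusted p = 0.00664), and the call was kept without the SDpcb and SHR arrays of that region (1.75, 0.0393). It fell by 1.22 ± 0.41 in the vermis (limma adjusted p = 0.0175) with 3 of 4 arrays lower, a call that was lost with array weights, without the SD and without the SDpcb arrays (-0.67 at the smallest). The 2 other Oprl1 probe sets were dimmer (24.2nd and 32.7th percentile) and correlated with the first at 0.57 and 0.04. Neither had its highest mean in nigra/VTA (51.9 and 62.7), since both were higher in hippocampus (64.9 and 66.3). The difference of the second of them in the vermis was 0.28.

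Cnr1, the CB1 receptor gene, was bright everywhere and highest in the vermis. Its brighter probe set read 7202 in SD, 6470 in SDpcb, 5693 in SHR and 6056 in WKY there. Dorsal striatum followed at 4499, 5959, 2876 and 4454, hippocampus at 3425, 3247, 2416 and 4547, and prefrontal cortex at 2635, 2914, 2701 and 4038. Ventral striatum read 1276, 3769, 1412 and 1896, and nigra/VTA 1018, 1655, 801 and 1483. Ranges of neighbouring regions overlapped at each step, although in every single group the vermis was highest and the nigra/VTA lowest. Cnr1 rose by 1.34 ± 0.16 in the vermis, 2.53-fold (limma adjusted p = 2.75e-07), and fell by 1.55 ± 0.16 in the nigra/VTA (8.26e-08), and by 1.54 without the SDpcb and SHR arrays of that region (4.41e-05). The value is for RNA in the dissected piece, and CB1 protein on incoming axons was not measured. In bulk tissue fewer cells of a type and less RNA per cell cannot be told apart.

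Within the striatum Cnr1 was the 1 member called between dorsal and ventral, where 0.303% of probe sets were called. The dorsal signal was above the ventral in each group, by 3.53-fold in SD, 1.58 in SDpcb, 2.04 in SHR and 2.35 in WKY. The difference was 1.18 ± 0.21 (limma adjusted p = 0.00539, n = 4 pairs), a 2.27-fold higher dorsal level. Its size held between 0.97 and 1.36 over the alternatives, but with 3 groups in place of 4 the call was lost without the SD, the SHR or the WKY arrays (highest adjusted p 0.176). Against the other 5 regions the dorsal value was 0.67 and the ventral -0.75 (limma adjusted p = 0.00356 and 0.00324), both under the size rule. The dimmer Cnr1 probe set, at signals of 17.4 to 177, also had its highest region in the vermis (1.05, limma adjusted p = 0.022 in the fit without the filter, where 17.7% of probe sets were called) and its lowest in the nigra/VTA (-1.09, 0.0311). Its dorsal minus ventral value was 0.66 (limma adjusted p = 0.865).

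The remaining receptors were dim, and their values are descriptions, with tests only from the fit without the filter. Oprm1, the mu receptor gene, had 2 probe sets at the 25.2nd and 17.8th percentile by mean, with a Pearson r of 0.28 between them. Oprk1, the kappa receptor gene, had 3, at the 30.2nd, 19.6th and 7.27th percentile. The first of these was not correlated with the other two (r = 0.04 with each), which correlated at 0.67 with each other. Its nigra/VTA arrays read 80.3, 169, 78.4 and 121, its ventral striatal arrays 9.55, 245, 137 and 237, and its dorsal striatal arrays 109, 171, 11.3 and 210. In prefrontal cortex the 4 arrays were between 7.32 and 37.6. A difference between regions for this probe set did not pass without the filter (1.51 ± 0.82 in nigra/VTA, limma adjusted p = 0.237). Oprd1, the delta receptor gene, read 2.02 to 105 over all arrays with a median of 7.98, at about the 3rd percentile, and no region stood apart. Without the filter some single probe sets of Oprm1 and Oprk1 were called in a region: the brighter one of Oprm1 in hippocampus (-1.97, limma adjusted p = 0.0345, background 1.71%) and vermis (1.5, 0.0389), and of the dimmer ones of Oprk1 one in dorsal striatum (2.06, 0.0332) and the other in prefrontal cortex (-1.99, 0.047, background 3.78%). The other probe set or sets of the same gene were not called in those regions.

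**Figure D3:**
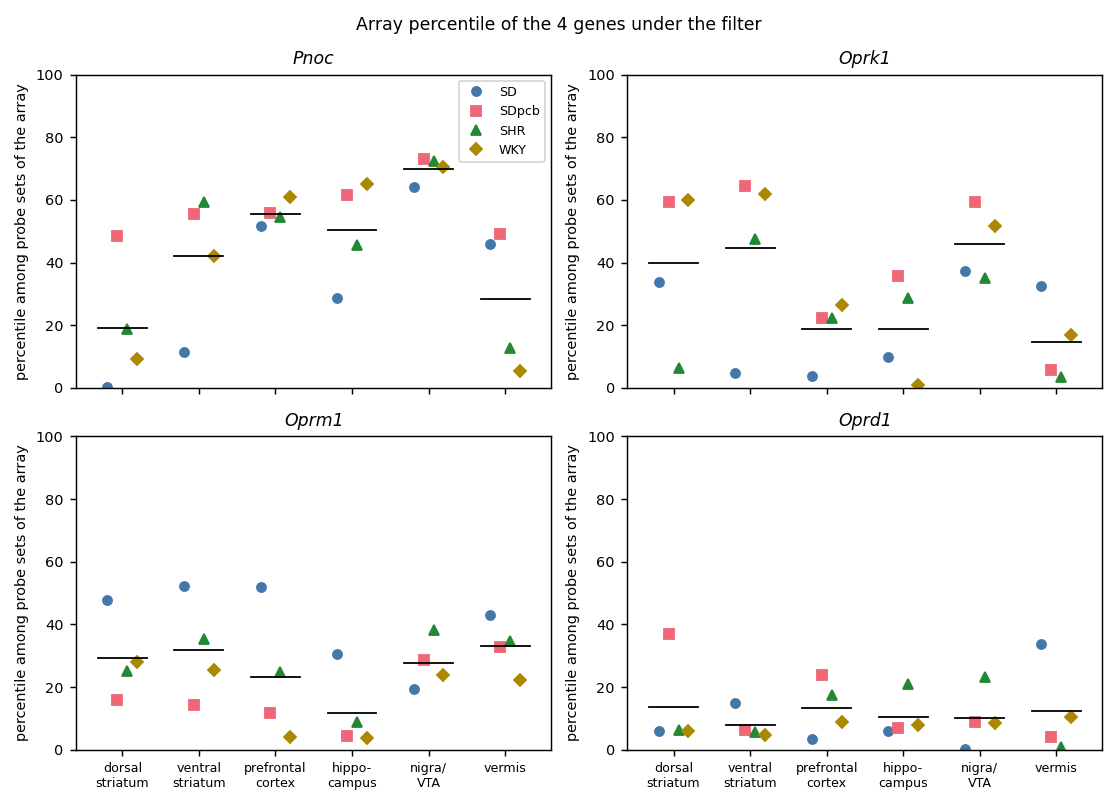
Percentile of Pnoc, Oprk1, Oprm1 and Oprd1 among all probe sets of each array, by region, with the group by colour and shape and the mean of the 4 arrays as a line. Pnoc lies above the 64th percentile on all 4 nigra/VTA arrays; Oprm1 in SD lies above the other groups in 5 of 6 regions.

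Genes whose level followed a member most closely over the 24 arrays were listed among 9005 genes as a description, since arrays of a region share its cell types. For Penk they were Gnal, the striatal olfactory-type G protein (Pearson r = 0.94), Tyw5 (0.93) and Rgs9, a striatal regulator of G protein signalling (0.93). For Pdyn they were Ankdd1a (0.95), Dlx5, a transcription factor of forebrain inhibitory neurons (0.92), and Kcna4, a potassium channel (0.91). For Cnr1 they were Calm2, a calmodulin gene (0.82), Mef2a, a transcription factor (0.82), and Pwwp2a (0.81); for Oprl1, Fxyd6 (0.78), Capn5 (0.77) and Bmper (0.76). Penk and Pdyn correlated with each other at 0.64.

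The 2 models were then compared with their controls over the 6 regions. In SHR minus WKY 1 of 4 tested members was called at a limma adjusted p under 0.05, where 32% of all probe sets were called. In SDpcb minus SD it was 0 of 4 (background 31.5%). At these backgrounds the counts say nothing particular about the members, and Cnr1 at an unadjusted limma p of 0.0176 was the only tested member under 0.05 in the second comparison. The 2 comparisons share no arrays.

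Cnr1 was lower in SHR than in WKY in 6 of 6 regions. In prefrontal cortex the signals were 2701 and 4038, in hippocampus 2416 and 4547, and in nigra/VTA 801 and 1483. In dorsal striatum they were 2876 and 4454, in ventral striatum 1412 and 1896, and in the vermis 5693 and 6056. The within-region log2 differences ran from -0.91 in the hippocampus to -0.09 in the vermis. Their mean was -0.59 ± 0.17 (limma SE, n = 6 regions), 0.665-fold, with a limma adjusted p of 0.0111. An exact two-sided sign-flip permutation over the 6 differences gave p = 0.0312, the smallest that 64 arrangements can give. Without the WKY prefrontal array the value was -0.53 (limma adjusted p = 0.0361), and without the SDpcb and SHR nigra/VTA arrays -0.55 (0.0295).

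Limits to this difference lie in the probe sets and in the arrays. The dimmer Cnr1 probe set went the other way, with SHR above WKY in 6 of 6 regions (0.99 ± 0.37, limma adjusted p = 0.0533 in the fit without the filter). Its exact sign-flip permutation gave the same p of 0.0312 in this opposite direction. Over 20 alternative settings the brighter probe set gave -0.92 (median centring, limma adjusted p = 0.000364) to -0.29 (each array's median signal as a covariate, 0.582). Array medians ran from 132 to 178 in SHR and from 109 to 153 in WKY, so this covariate partly follows the group. With it 5.5% of all probe sets were called. Arrays of SHR carried more of several other markers: of the tested ones, 5 of 6 meningeal, 4 of 5 vessel and 4 of 4 microglial genes were higher in SHR than in WKY. So were Hbb, a blood marker (1.71), 2 of 3 oligodendrocyte genes, 2 of 3 astrocyte genes with 1 lower, and 2 of 7 interneuron genes. Of 7 spiny neuron genes 2 were lower (Tac1 and Pde10a) and 1 higher (Ppp1r1b). The summed meningeal signal was 3789 to 17629 in SHR and 2075 to 6622 in WKY, the vessel sum 2940 to 5622 and 1135 to 3231, and the microglial sum 806 to 1699 and 504 to 871. Their part in the Cnr1 value was not tested.

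**Figure D4:**
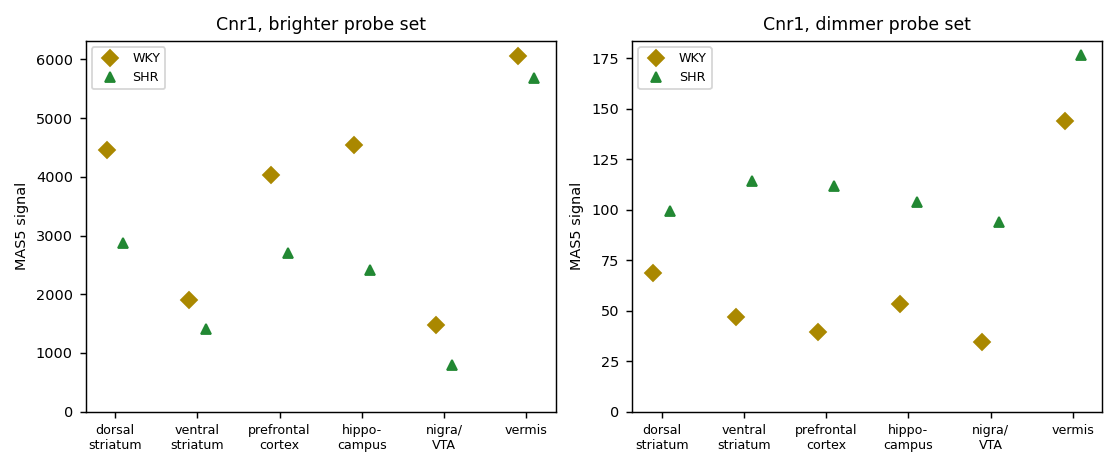
Signal of both Cnr1 probe sets in SHR and WKY by region, 1 array per point, with linear axes from 0. SHR lies under WKY in 6 of 6 regions for the brighter probe set and above it in 6 of 6 for the dimmer one.

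In SDpcb minus SD the Cnr1 difference was 0.43 ± 0.17 (limma adjusted p = 0.0543), higher in 4 of 6 regions. The ventral striatum held the largest of the 6 values, 3769 against 1276 (1.56 on the log2 scale), and without that region the mean was 0.20 (limma adjusted p = 0.349). The call passed without the hippocampus (0.0422) or without the vermis (0.0218). The 2 models differed from each other: SHR minus WKY less SDpcb minus SD was -1.02 ± 0.24 (limma adjusted p = 0.00193; 1 of 4 tested members, background 40.4%). Over 18 alternative settings of the brighter probe set it ran from -2.08 with median centring (limma adjusted p = 2.67e-07) to -0.07 with the array median as a covariate (0.981). Under these 2 settings 69.5% and 0.0129% of all probe sets were called. The dimmer probe set gave 0.37 (limma adjusted p = 0.584). SHR minus SD was -0.28 ± 0.17 and WKY minus SD 0.31 ± 0.17 (limma adjusted p = 0.215 and 0.212); 0 of 4 members were called in either, where 33.4% and 17.5% of probe sets were, with no unadjusted p under 0.05. Both share the SD arrays and are given side by side only.

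Penk did not pass in either model. SHR minus WKY was 0.12 ± 0.21 (95% interval -0.32 to 0.56, limma adjusted p = 0.693) and SDpcb minus SD 0.07 ± 0.21 (-0.36 to 0.51, 0.819). Within the regions the SHR minus WKY values ran from -0.35 in the vermis to 0.76 in nigra/VTA, and were -0.04 and -0.02 in dorsal and ventral striatum. In SDpcb minus SD the largest was 1.41 in hippocampus, from 543 to 1442, while both striatal values were lower (-0.36 and -0.29). After median centring of the arrays the SDpcb minus SD value was 0.80 (limma adjusted p = 0.00214). That centring moved the median of all probe sets by 0.72, and 74.3% of them were called, so the value is not particular to Penk.

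**Figure D5:**
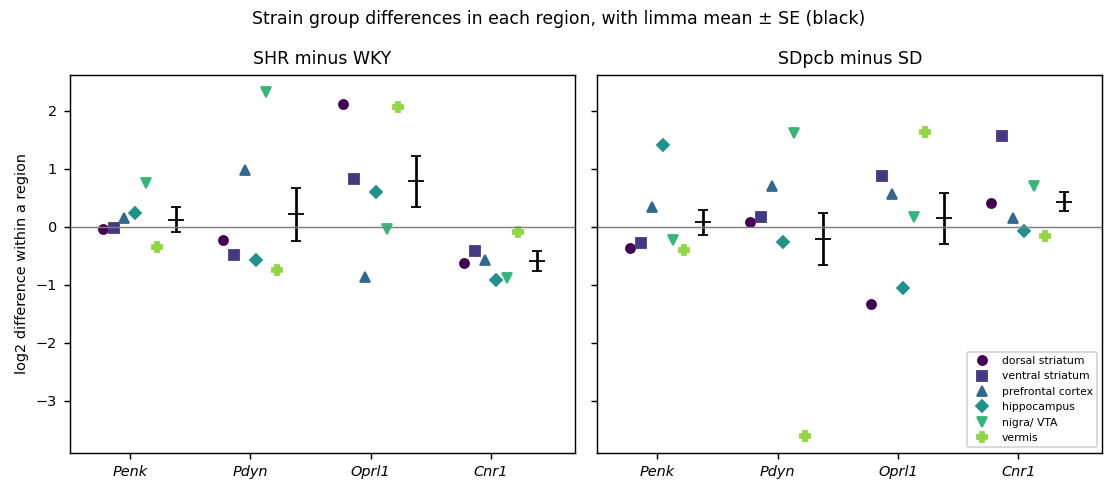
Log2 differences within each of the 6 regions for SHR minus WKY and SDpcb minus SD, 1 point per region, with the limma mean ± SE in black. The 6 Cnr1 points are all below 0 for SHR minus WKY; Pdyn is widest, from -3.60 in the vermis to 1.61 in nigra/VTA for SDpcb minus SD.

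Among the 4 tested members Pdyn had the widest range of group differences between regions. Its mean was 0.21 ± 0.45 for SHR minus WKY (95% interval -0.72 to 1.14, limma adjusted p = 0.752) and -0.22 ± 0.45 for SDpcb minus SD (-1.15 to 0.72, 0.746). In nigra/VTA both models were higher, by 2.33 and 1.61, on the arrays with hypothalamic transcripts described above. Prefrontal cortex also had both models higher, at 0.98 and 0.69. The remaining SHR minus WKY values were below 0, from -0.75 in vermis to -0.23 in dorsal striatum. Without the SDpcb and SHR nigra/VTA arrays the mean for SHR minus WKY was -0.14 (limma adjusted p = 0.827). The vermis value of -3.60 for SDpcb minus SD comes from a signal of 4.42 against 64.7, and the mean without the vermis was 0.46 (limma adjusted p = 0.285).

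Oprl1 gave 0.78 ± 0.44 for SHR minus WKY (95% interval -0.12 to 1.68, limma adjusted p = 0.174), higher in 4 of 6 regions. The largest values were 2.12 in dorsal striatum (116 against 25.9) and 2.05 in vermis (240 against 57.0), and the prefrontal value was -0.87. Without the WKY prefrontal array the mean was 1.02 (limma adjusted p = 0.101). SDpcb minus SD was 0.14 ± 0.44 (-0.76 to 1.04, limma adjusted p = 0.833), with values from -1.33 to 1.64. A dimmer Oprl1 probe set was lower in 5 of 6 regions in that comparison (-1.39 ± 0.50, limma adjusted p = 0.0308 in the fit without the filter, where 35.7% of probe sets were called). Whether a model's difference was particular to the striatum was tested by a term for both striatal regions against the other 4. By limma 0 of 4 members passed for either model, where 0% and 0.00644% of probe sets did. Cnr1 in SDpcb minus SD had the only unadjusted value under 0.05 (0.83 ± 0.31, limma adjusted p = 0.832, unadjusted 0.0141).

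Among dim members the group differences of Oprm1 were the largest. Over the 6 regions its brighter probe set read 35.4 to 183 (median 151) in SD, 2.13 to 66.8 (12.3) in SDpcb, 16.5 to 109 (70.7) in SHR and 2.86 to 50.6 (33.8) in WKY. This is the order of the lower quartile of all probe sets in the 4 groups, given above. The median percentile of this probe set on its arrays had the same order: 45.4 in SD, 29.8 in SHR, 23.2 in WKY and 15.1 in SDpcb. The part of the arrays' dim end in these differences was not tested. In the fit without the filter SDpcb minus SD was -3.05 ± 0.59 (0 of 6 higher, limma adjusted p = 0.00034, background 35.7%), and SHR minus WKY 1.63 ± 0.59 (6 of 6 higher, 0.0457, background 22.5%). With the array median as a covariate the signs turned, to 0.74 and -0.14. Array medians ran from 89.0 to 126 in SDpcb and from 131 to 184 in SD, so this covariate is close to the group label. The turned signs cannot decide between group and array. WKY minus SD was -2.61 (limma adjusted p = 0.0036, background 15.7%), and the difference of the models 4.68 ± 0.83 (0.000127, background 42.6%). SHR minus WKY was no longer past the threshold without the WKY prefrontal array (1.25, 0.145) or without the SDpcb and SHR nigra/VTA arrays (1.42, 0.123). No direction is given for Oprm1. The second Oprm1 probe set gave -2.06 (limma adjusted p = 0.0454) and 0.94 (0.416).

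The other dim members had these values in the same fit. Pnoc was 0.68 ± 0.59 for SHR minus WKY and 1.28 ± 0.59 for SDpcb minus SD (limma adjusted p = 0.431 and 0.0923), with the SDpcb minus SD values largest in dorsal and ventral striatum (3.50 and 2.80), where the SD arrays read 6.50 and 18.2. Oprk1 was -0.34 ± 0.86 and 0.83 ± 0.86 (limma adjusted p = 0.808 and 0.471). A dimmer Oprk1 probe set was called in SDpcb minus SD (-2.34, limma adjusted p = 0.00997), opposite in sign to the first. Oprd1 was 1.44 ± 0.78 and -0.75 ± 0.78 (limma adjusted p = 0.181 and 0.468).

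Genes that make, clear or transmit these signals were followed from 5 lists with 46 genes, of which 38 were on the array and 27 tested; the others were not analysed here. In SHR minus WKY 7 rose and 2 fell, with a median of 0.12 against 0.04 over all probe sets. With 32% of all probe sets called, 9 of 27 is near the background and says nothing particular about these lists. Of 6 endocannabinoid genes tested 3 rose and 1 fell, too few to set against that share. Mgll, which encodes the lipase that breaks down the endocannabinoid 2-arachidonoylglycerol, had the largest difference of the 27: its signal was 1817 against 606 in dorsal striatum, 1536 against 802 in ventral striatum and 1604 against 808 in hippocampus. SHR was higher in 6 of 6 regions, by 1.04 ± 0.19, 2.05-fold (limma adjusted p = 0.000345), and the call was kept under quantile, median and loess scaling and with the array median as a covariate (0.70 to 1.28). Abhd12, a second lipase acting on 2-arachidonoylglycerol, rose by 0.59 ± 0.11 (limma adjusted p = 0.000719), with 0.25 and no call after median centring. Plcb1, a phospholipase C, fell by 0.51 (limma adjusted p = 0.0227), and its sign turned with the covariate. The markers given beside Cnr1 moved on the same arrays, and their part in these values was not tested.

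Of 12 receptor signalling genes tested in SHR minus WKY, Gnai2, an inhibitory G protein subunit (0.53), and Arrb1, a beta-arrestin (0.39), rose, and Gnao1, the subunit most used by these receptors in neurons, fell (-0.35, limma adjusted p = 0.00977). Among 6 processing genes Pcsk1n, which encodes an inhibitor of the prohormone convertase 1, rose (0.47), and among 3 peptidases Ece2, an endothelin-converting enzyme, rose (0.55). Of these 9 genes 3 kept their call after median centring and 1, Mgll, with the covariate.

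In SDpcb minus SD 5 of the 27 rose and 5 fell, with a median of 0.04 against -0.01 over all probe sets. With 31.5% of all probe sets called, this count is near the background too. Arrb2 (0.68), Pcsk2, a convertase that cuts the opioid precursors (0.67), Gnao1 (0.58, limma adjusted p = 0.000129), Daglb, a lipase that makes 2-arachidonoylglycerol (0.42), and Gnaz (0.36) rose. Adcy8, a calcium-stimulated adenylyl cyclase (-1.12, limma adjusted p = 0.00456), Cpd (-0.77), Ece2 (-0.54), Cpe, the carboxypeptidase that trims cut peptides (-0.52), and Gnb1 (-0.49) fell. The signs of Cpe and Gnb1 turned under quantile and median scaling, and that of Ece2 under median centring. Under loess scaling 8 of the 10 calls were kept. With the covariate 0 were kept, where 0% of all probe sets were called. The array medians of SDpcb and SD do not overlap, so that setting cannot show whether a call holds. Of 5 vessel markers 4 were higher in SDpcb than in SD, as were Hbb (1.06) and 2 of 7 spiny neuron genes. Lower were 2 of 3 oligodendrocyte, 2 of 6 meningeal and 1 of 3 astrocyte genes, and the part of all these markers was not tested. Mgll was at 0.04 ± 0.19 in this comparison (limma adjusted p = 0.884), and the difference between the models for it was 0.996 ± 0.26 (0.0049).

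The same lists were counted across regions. Adcy5, the main adenylyl cyclase of striatal spiny neurons, rose in dorsal striatum by 2.96 ± 0.38 and in ventral striatum by 1.99 ± 0.38 (limma adjusted p = 2.91e-06 and 0.000997). The potassium channel genes Kcnj3 and Kcnj6, whose channels open on inhibitory G protein release, were at -1.40 and -1.98 in dorsal striatum, and Kcnj6 was called in ventral striatum (-1.27). Kcnj6 rose in hippocampus (1.75) and prefrontal cortex (1.03). In the vermis 6 of 27 fell and 1 rose, where 15.3% of all probe sets were called. Pam, which amidates peptide ends, was at -2.94 ± 0.19 (limma adjusted p = 1.50e-11), with signals of 84.9 to 209 against 629 to 1498 in all other regions. Adcy5, Pcsk1n, Plcb1, Gnai2 and Pcsk2 also fell (-2.48 to -1.05), while Adcy8 rose by 1.06. Mgll rose in prefrontal cortex (1.09) and fell in nigra/VTA (-1.22). Ece2 and Adcy8 were called higher in nigra/VTA. Ece2 was called lower in prefrontal cortex, and Adcy8 lower in dorsal striatum. Of the 27 genes 1 was called in hippocampus (background 2.83%), 3 in prefrontal cortex (4.72%), 3 in nigra/VTA (7.44%), 2 in ventral striatum (2.04%) and 4 in dorsal striatum (5.16%). These counts are small and are given as a description.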

How the data were processed

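Per the submitters' processing notes, the authors deposited MAS5 signals, a linear intensity per probe set, for 24 Affymetrix Rat RAE 230 2.0 arrays. The MAS5 version and detection calls are not given in the sources used here. Per the labels, RNA was purified with Qiagen RNeasy columns and labelled with the Ovation kit.

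From these, log2(signal + 1) was fitted with limma 3.58.1 (R 4.3.3; terms for strain group and region; 15 residual degrees of freedom, 12 with striatum terms; trend; two-sided). After 57 control probe sets were set aside, 15521 of 31042 probe sets, with a mean log2(signal + 1) of 6.87 or more, were tested. Genes were named through the platform table, 1 symbol per probe set. The chain was tested on simulated data. The number of arrays limits precision.

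The members, lists and tests were chosen with earlier results of these data known. All members and their probe sets are named, with up to 6 pathway genes past the threshold in each direction. CCAAT and TATAAA were searched after the sequence was seen. Alternatives covered scaling, pseudocount, filter, trend, array weights, thresholds, a covariate and left-out arrays. Those without the WKY prefrontal array or the SDpcb and SHR nigra/VTA arrays were chosen after seeing the data.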

Additional observations from a re-analysis of the deposited data

Results flagged for a closer look

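Of 64 groups of values looked at, 1 held a value far from the others, where chance alone gives about 1 in 20 groups, or 3.2. It was the Pdyn difference between SDpcb and SD in the cerebellar vermis, -3.60 on the log2 scale, far below the other 5 regions (-0.26 to 1.61); it comes from a signal of 4.42 against 64.7.

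In 2 genes the difference between both models was itself past the test, as it was in 40.4% of all probe sets tested and 42.6% without the filter, so that it is not particular to them. For Cnr1 SHR minus WKY less SDpcb minus SD was -1.02 (limma adjusted p = 0.00193, 1 of 6 regions higher). For Oprm1, a dim gene, the same difference without the filter was 4.68 (limma adjusted p = 0.000127, 6 of 6 regions higher). Both rest on the settings given under the processing.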

How the results depend on the processing

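Of 15 called differences of member genes, 10 kept their call and direction in each setting counted, and 219 of 231 settings in all kept the call. Other probe sets of the same gene are not among the settings counted. For Cnr1, Oprl1 and Pdyn they turned the sign of some of these called differences, as given below. The count of called members changed as follows, with some smaller changes left out. Without the filter it was 2 for SHR minus WKY, 2 for SDpcb minus SD, 1 for WKY minus SD, 2 for the difference of the models and 2 in hippocampus. In that fit Pnoc was also called in dorsal striatum and nigra/VTA, and Oprm1 in vermis, as given above. With median centring the count was 2 for SDpcb minus SD (74.3% of probe sets called). It was 2 for WKY minus SD (56.3%) and 2 for the difference (69.5%). With the array median as a covariate the count was 0 for SHR minus WKY (5.5% of probe sets called) and 0 for the difference (0.0129%). With array weights it was 1 for SDpcb minus SD and 3 in prefrontal cortex, with an adjusted p under 0.1 it was 1 for SDpcb minus SD, and with the upper 25% by signal 1 in nigra/VTA. Leaving out regions or groups in turn gave 0 to 1 for SDpcb minus SD, 1 to 2 in prefrontal cortex, 2 to 4 in vermis and 0 to 1 for dorsal minus ventral striatum. Without the WKY prefrontal array, or without the SDpcb and SHR nigra/VTA arrays, the counts were the same in each comparison but nigra/VTA, which went from 2 to 3 without the latter. The added call was that of Pdyn, whose higher nigra/VTA arrays were the ones left out.

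Signs turned for Oprm1 with the covariate (-0.14 for SHR minus WKY, 0.74 for SDpcb minus SD, -0.88 for the difference) and for Penk with median centring (difference -1.01). They turned between probe sets for Cnr1 (0.99 for SHR minus WKY, 0.37 for the difference), Oprl1 (-1.39 for SDpcb minus SD, 0.28 in vermis) and Pdyn (0.37 in vermis). The cause was not tested.

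Median centring moved the median of all probe sets by -0.34, 0.72 and -1.06 for SHR minus WKY, SDpcb minus SD and the difference. The share of called probe sets that were higher went from 51.1% to 8.88%, from 46.5% to 95.4% and from 54.5% to 3.22%. The share of probe sets called in SHR minus WKY was 5.5% with the covariate, 20.7% without ventral striatum and 49.5% with array weights. In SDpcb minus SD it was 0% with the covariate and 74.3% with median centring. The covariate is close to the group label in SDpcb and SD, whose array medians do not overlap. A call lost or a sign turned under it cannot be read as a result about a gene. With a log2 difference of at least 0.5 the regional shares were 5.93% to 36.7%. Signals near the low end of an array are the least certain, and no detection call bounds them.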
